A study of Mus musculus with 25 samples.

Results

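Neurotransmitter receptor genes were examined in neurons sorted from the sensorimotor cortex of mice with and without the transcriptional repressor REST, before and after spinal cord injury (SCI). Members were taken by gene symbol: subunits of the ionotropic and metabotropic glutamate receptors, the GABA and glycine receptors, and the acetylcholine, serotonin, dopamine, adrenergic, adenosine, neuropeptide Y and opioid receptors. Of the 9931 genes with a symbol in the deposited table, 40 met this rule. They comprised 14 excitatory genes (ionotropic glutamate receptors), 12 inhibitory genes (GABA and glycine receptors) and 14 other receptor genes. The table held 3 AMPA, 5 NMDA, 4 kainate and 2 delta receptor genes on the excitatory side, and 8 GABA-A, 2 GABA-B and 2 glycine receptor genes on the inhibitory side. The other genes were 3 metabotropic glutamate, 3 adrenergic, 2 muscarinic, 2 nicotinic, 2 adenosine, 1 dopamine and 1 opioid-family receptor gene. Gene positions are those of the GENCODE annotation of GRCm38, the build of the authors' alignment.

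All mice of these groups were homozygous for floxed *Rest* alleles (REST flx/flx) and for a Cre-dependent reporter (STOP flx/flx TdTomato), on a background labelled C57BL/6. Young adults of both sexes, 4 to 6 weeks of age by the study's methods, received in the cortex either AAV-Syn-GFP (called WT, with the floxed alleles intact) or AAV-Syn-Cre (called REST cKO). Both viruses use the human synapsin promoter, which restricts expression to neurons, so *Rest* deletion depends on which neurons were infected. The injury was a complete crush at thoracic level T10. The 25 libraries formed 8 groups. WT mice gave 4 sham libraries and 3 libraries at each of days 1, 3 and 7 after SCI. REST cKO mice gave 3 sham libraries, 2 at day 1, 4 at day 3 and 3 at day 7. Each library came from a small pool of cells isolated by fluorescence (GFP for WT, tdTomato for REST cKO), so virus, reporter and genotype cannot be told apart. By the labels all 3 WT day 7 libraries were female and all 3 REST cKO day 7 libraries male, so at day 7 sex and genotype coincided. In sham all 3 REST cKO libraries were male, against 2 female and 2 male WT libraries. Any separation of sex from genotype at day 7 therefore rests on a term for sex estimated from the other groups. The study gives its RNA-seq n in mice, but the labels name no animal for a library.

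Glutamate opens AMPA, kainate and NMDA receptor channels and depolarizes the neuron, whereas GABA and glycine open chloride channels that oppose firing. Each channel is assembled from several subunits, and the subunit mix sets its kinetics, calcium entry and drug sensitivity. Metabotropic glutamate, GABA-B, muscarinic and adenosine receptors act more slowly through G proteins. REST silences neuronal genes, among them channel and receptor genes, by binding an element called RE1 (or NRSE) near their promoters.

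The values are on the deposited log2 scale, in which each unit is meant as a doubling. The values ranged from -4.82 to 5.16 over all genes, and their antilogs summed to between 21927 and 31113 per library, so they were not read counts, and the depth of each library cannot be had from them. Differences are therefore given on this scale and not as folds. No length-normalised value was used, so a higher level of one gene than of another does not mean more transcripts, and class means are compared between libraries only. The mean value of a receptor gene over the 25 libraries ranged from -1.86 (*Oprl1*, the nociceptin receptor) to 1.97 (*Chrnb3*, a nicotinic subunit), with a median of 0.11 against 0.64 over all genes. Values under -2 made up 13.1% of the receptor values and 8.57% of all values. In WT day 3 replicate 5 they made up 29.5% of all values, the most of any library.

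The sorted cells were labelled cortical motor neurons, and the markers of several cell types were measured in every library. The 10 pan-neuronal markers averaged 1.34 over the libraries, and 11 of 14 excitatory neuron markers, among them *Slc17a7* and *Camk2a*, averaged 0.98. Only 7 of 13 inhibitory neuron markers were in the table, with a mean of -0.30. All 12 microglia markers were in the table and averaged 3.15 (lowest library 2.68, highest 3.47), so transcripts typical of microglia were present in every library of sorted neurons. Astrocyte markers (9 of 12) averaged 1.42, endothelial markers (8 of 8) 2.05 and oligodendrocyte markers (11 of 13) 0.50. Across the 25 libraries the mean of the 40 receptor genes had a Pearson r of 0.47 with the pan-neuronal mean and -0.50 with the microglia mean. These correlations are descriptions over libraries that share normalization. In such sorted pools, fewer neurons and less RNA per neuron cannot be told apart.

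The authors had regressed the first 2 principal components of the sequencing metrics out of the values. Most genes accordingly had correlations of at most 3.94e-10 with these components. The other 140 genes (1.41%) correlated with a component by more than 1e-05, and 11 of the 40 receptor genes (27.5%) were among them: 3 excitatory (*Grin1*, *Grid1*, *Grik5*), 5 inhibitory (among them *Gabra2* and *Gabra3*) and the 3 metabotropic glutamate receptor genes (*Grm2*, *Grm5*, *Grm7*). For each of the 11 genes, a search found exactly 1 set of at most 3 values whose change in sign, by a step, or both, returned the correlation to 0. These sets held 17 values, of which 12 were in day 7 groups and 5 in day 3 groups. In *Gabra3*, for example, REST cKO day 7 replicate 2 was deposited as 0.70 and the value that gives zero correlation was -2.70. In *Grm2*, WT day 3 replicate 5 was deposited as 2.39, against -2.39. The cause was not tested. For the results that turn on these 11 genes, the value that goes with zero correlation stands beside the deposited one.

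**Figure D1:**
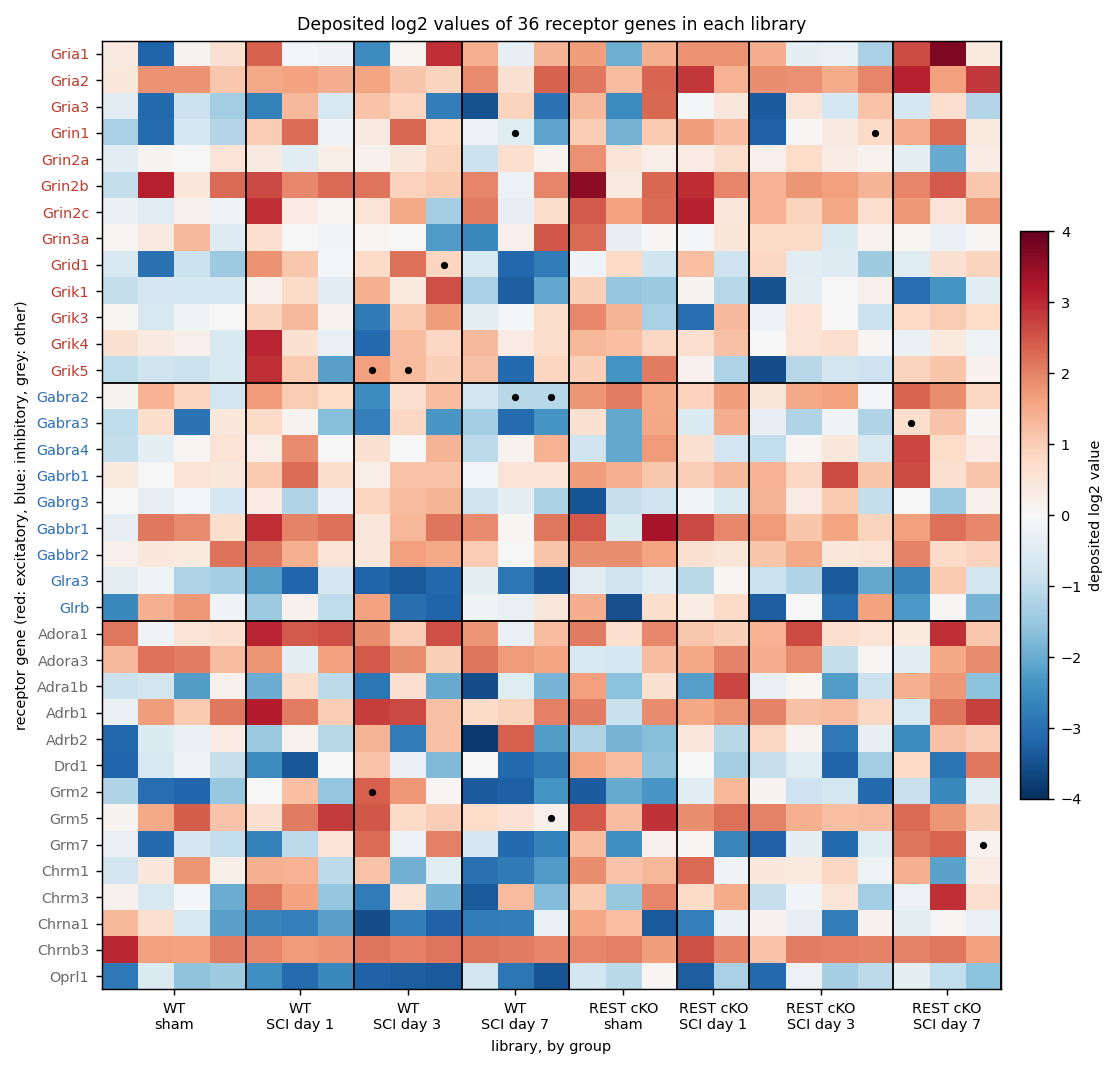
Deposited log2 value of 36 of the 40 receptor genes (rows; red names excitatory, blue inhibitory, grey other) in each of the 25 libraries (columns, in 8 groups divided by lines), with blue for low and red for high values. Black dots mark the 11 values of these genes for which another value gives zero correlation with the sequencing components, 6 of them in day 7 groups.

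*Rest* itself was lower in REST cKO than in WT in all 4 conditions. Its mean was -0.69 ± 0.58 in WT sham and -1.32 ± 1.16 in REST cKO sham (SD), and 1.77 ± 1.33 against -0.84 ± 0.46 at day 7, where the highest REST cKO library (-0.33) was below the lowest WT library (0.26). Averaged over the conditions the difference was -1.68 ± 0.47 (SE; limma adjusted p = 0.40). Reads of this kit come from the 3′ end of a transcript and may lie outside the deleted part, so the level is only a partial check of the labels.

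No receptor gene passed an adjusted p of 0.1 in limma in any of the 13 comparisons, which were REST cKO against WT in each condition and averaged, each day after SCI against sham in each genotype, and the genotype by injury interaction at day 3 and day 7. The smallest adjusted p was 0.232 (*Gabra2* at day 7). The background was as low: 0.0302% of all genes passed in REST cKO against WT in sham, 0.0101% averaged over the conditions and in WT at day 3 against sham, 0.0201% in REST cKO at day 3 against sham and in the day 7 interaction, and 0% in the other 8 comparisons. The study, with limma at the same threshold, reported more genes in REST cKO against WT in sham, at day 3 and at day 7. Its stated model held genotype and 2 components, which is not the fit of 8 groups used here. The reason for the difference in counts was not tested. At an unadjusted p under 0.05, 4 receptor genes differed between genotypes in sham (6.91% of all genes did), 1 at day 1 (3.81% of all genes), 6 at day 3 (6.37%) and 8 at day 7 (9.95%). All 8 at day 7 were higher in REST cKO, in which direction 7.73% of all genes passed, and 5 of the 6 at day 3 were lower, in which direction 2.57% passed. Averaged over the 4 conditions, 6 receptor genes passed, all higher in REST cKO, against 8.53% of all genes in either direction and 6.6% higher. This count was between 4 and 10 with single libraries left out and between 3 and 9 under the other alternatives. These 6 were *Grin2c* (1.28), *Gabra2* (1.24), *Gria2* (0.71), *Oprl1* (1.18), *Chrm1* (1.24) and *Gabra3* (1.36, or 1.00 with the values that give zero correlation).

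The median genotype difference of the receptor genes was positive in sham, at day 1 and at day 7 and negative at day 3, although no receptor gene passed the adjusted test of an interaction. In sham, 29 of 40 were higher in REST cKO (51.8% of all genes were), with a median difference of 0.99 against 0.04 over all genes. At day 1 the median was 0.26 (all genes 0.19) and at day 3 it was -0.21 (all genes 0.05). At day 7, 34 of 40 were higher in REST cKO (60.5% of all genes were), with a median of 1.23 against 0.23 over all genes. With the values that give zero correlation the medians were 0.99, 0.29, -0.24 and 1.21, and over the other 29 receptor genes, without a correlation to the components, they were 0.67, 0.39, 0.03 and 0.91, none of them negative. With a term for sex, an alternative for medians chosen after seeing the data, the receptor median was 0.64 in sham and 1.24 at day 7, where 34 of 40 genes were again higher in REST cKO (all genes 0.19).

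Markers of several cell types also differed between the groups. In sham the pan-neuronal marker mean was 0.89 in WT (0.05 to 1.49) and 2.10 in REST cKO (1.74 to 2.43), the astrocyte mean 0.79 (0.59 to 0.92) and 2.02 (1.51 to 2.37), and the microglia mean 3.23 (3.11 to 3.34) and 2.92 (2.80 to 3.05). The inhibitory neuron marker mean was -0.66 (-1.55 to 0.29) in WT sham and 0.68 (0.36 to 1.25) in REST cKO sham. At day 7 the pan-neuronal mean was 0.99 in WT (0.65 to 1.41) and 1.5 in REST cKO (1.16 to 1.97), and the astrocyte mean 0.78 (0.10 to 1.77) and 1.74 (1.57 to 2.05). The inhibitory neuron marker mean was -0.87 (-1.42 to -0.05) in WT day 7 and -0.04 (-0.82 to 0.36) in REST cKO day 7. The day 7 genotypes did not overlap in the excitatory neuron marker mean, at 0.55 (0.10 to 0.87) in WT and 1.17 (1.02 to 1.27) in REST cKO, nor in the microglia mean, at 3.24 (3.17 to 3.36) and 3.14 (3.11 to 3.15). The pan-neuronal mean was 1.67 in WT and 1.36 in REST cKO at day 1 and 1.11 and 1.26 at day 3. The astrocyte mean at day 3 was 0.80 and 1.60. The excitatory neuron marker mean was 1.23 in WT and 1.24 in REST cKO at day 1 and 1.06 and 0.90 at day 3. Low values also differed between the day 7 genotypes. Receptor values under -2 made up 22.5%, 30% and 32.5% of the WT day 7 libraries and 10%, 12.5% and 0% of the REST cKO day 7 libraries, and over all genes such values made up 11.1%, 16.98% and 12.2% against 10.7%, 8.84% and 2.77%, with no overlap. The part of the cell markers and of the low values in the receptor differences was not tested.

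**Figure D2:**
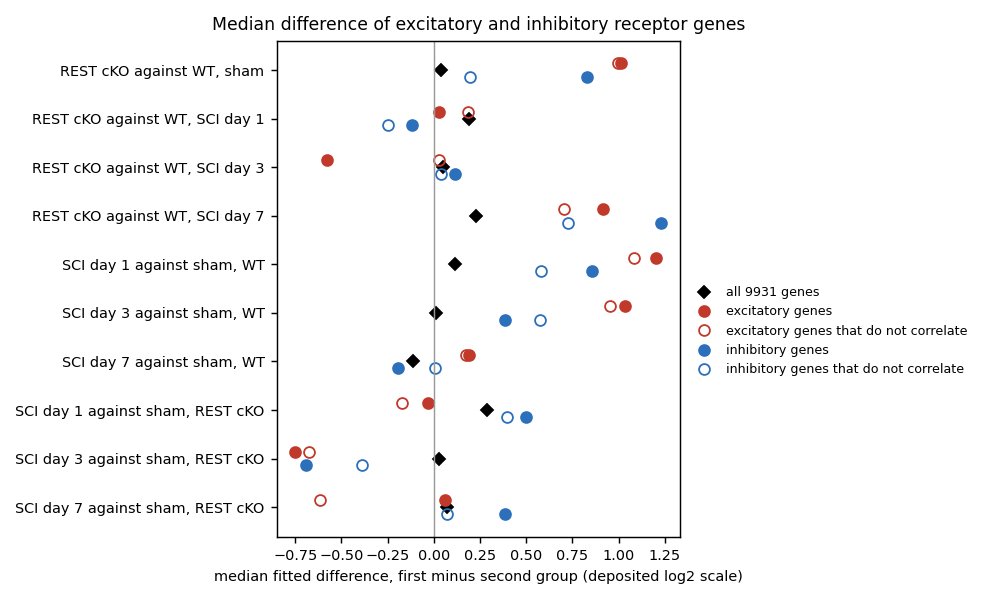
Median fitted difference (x axis, deposited log2 scale, first minus second group) of the 14 excitatory (red) and 12 inhibitory (blue) receptor genes in 10 comparisons, with the median over all 9931 genes as black diamonds. Open circles leave out the 11 genes that correlate with a sequencing component; at day 7 both classes lie to the right of the 0.23 of all genes, at 0.92 and 1.23 with all members and 0.71 and 0.73 without those genes.

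Set against each other, excitatory and inhibitory genes did not keep one order across the genotype comparisons. In sham, 13 of 14 excitatory and 8 of 12 inhibitory genes were higher in REST cKO, with medians of 1.01 and 0.83. At day 1 the counts were 7 of 14 and 5 of 12, with medians of 0.03 and -0.12. At day 3, 6 of 14 excitatory and 7 of 12 inhibitory genes were higher, with medians of -0.58 and 0.12. At day 7, 11 of 14 and 11 of 12 were higher, with medians of 0.92 and 1.23. Without the 11 correlating genes the excitatory median at day 3 was 0.03 and the inhibitory 0.04, and at day 7 they were 0.71 and 0.73. The gap between the classes at day 3 and day 7 was thus smaller without those genes. In sham the medians without them were 1.00 and 0.20, and at day 1 0.19 and -0.25, so in these conditions the gap was larger. With the values that give zero correlation the medians were -0.58 and 0.30 at day 3 and 0.92 and 1.00 at day 7. With a term for sex they were -0.32 and -0.05 at day 3 and 0.50 and 1.19 at day 7.

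The excitatory mean minus the inhibitory mean of each library was also computed for each library. In WT sham this difference was 0.08, -1.26, -0.14 and -0.37 in the 4 libraries. In WT it was 0.83, 0.21 and -0.23 at day 1, 0.50, 1.04 and 0.48 at day 3, and 0.01, -0.28 and 0.52 at day 7. All 3 WT day 3 libraries were above all 4 WT sham libraries, while day 1 and day 7 overlapped sham. Without the 11 correlating genes the WT day 3 libraries were at -0.12, 1.06 and 0.12 and WT sham reached 0.34, so these groups then overlapped. In REST cKO it was 0.62, -0.24 and 0.15 in sham, 0.22 and -0.29 at day 1, -0.58, 0.06, 0.52 and 0.08 at day 3, and -0.15, -0.55 and -0.16 at day 7. The REST cKO groups overlapped each other, and the WT and REST cKO ranges overlapped in every condition. Group means ran from -0.43 ± 0.59 (WT sham) to 0.67 ± 0.32 (WT day 3) and, in REST cKO, from -0.29 ± 0.23 (day 7) to 0.18 ± 0.43 (sham). Without the correlating genes WT day 3 was at 0.36 ± 0.62, below the 0.48 ± 0.88 of REST cKO sham, so WT day 3 was then not the highest group. REST cKO day 7 was then at 0.03 ± 0.07 and no longer negative. With the values that give zero correlation the WT day 3 libraries were at 0.19, 1.11 and 0.36 and REST cKO day 7 replicate 2 was at 0.34 in place of -0.15. No p is given for this score, since the members were chosen with results of these data known.

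**Figure D3:**
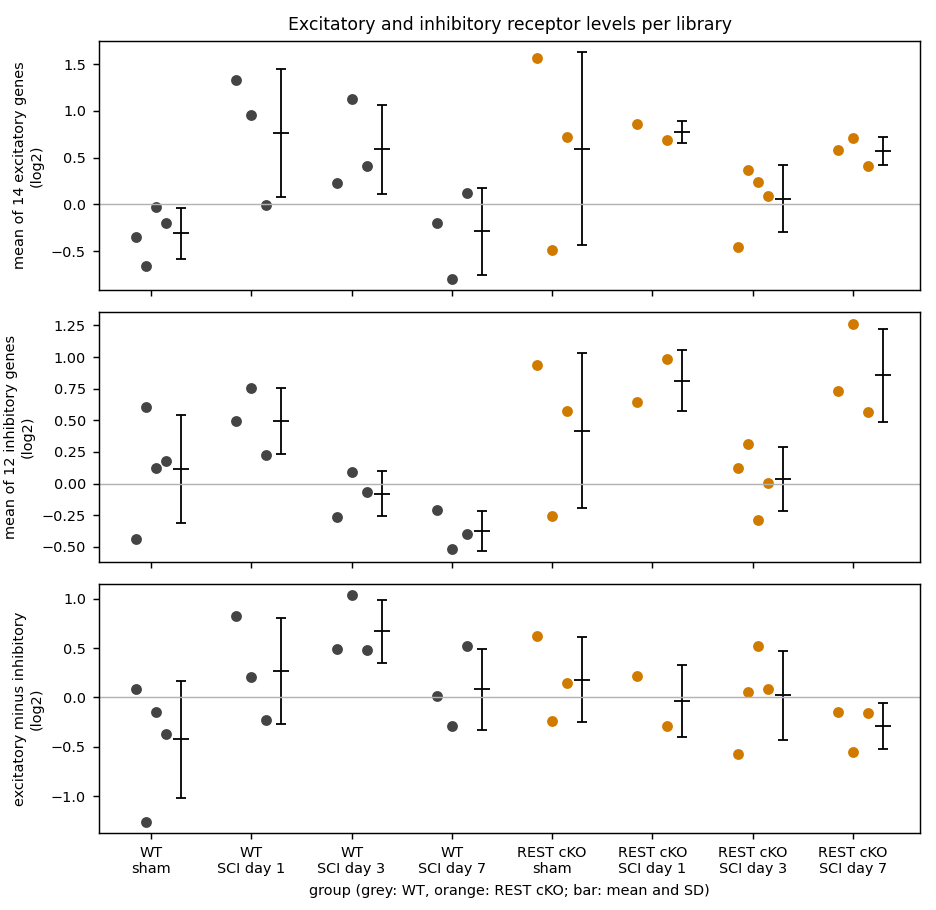
Mean log2 value of the 14 excitatory genes (top), of the 12 inhibitory genes (middle) and their difference (bottom) in each of the 25 libraries, by group (grey WT, orange REST cKO), with bars for the group mean and SD. With all members the difference is highest in WT day 3 (0.67 ± 0.32, or 0.36 ± 0.62 without the correlating genes, when REST cKO sham is higher), and WT and REST cKO overlap in each condition.

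*Gria2* encodes the AMPA receptor subunit that makes the channel impermeable to calcium, and *Grin1* the subunit that every NMDA receptor needs. Both are textbook targets of REST, and of the 6 receptor genes listed as such (with *Chrm4*, *Chrnb2*, *Glra1* and *Oprm1*) they were the ones in the table. RefSeq promoter windows (GRCm38.p6, 250 bases before to 50 after the start) were found for 25 of the 40 receptor genes, in 33 windows. They were searched on both strands for the letters AGNACCNNGGACAG, a 14-base core of the RE1 element whose spelling was chosen after several had been tried. The core was in 2 of the 33 receptor windows, those of *Grin1* and *Gria2*, and in 32 of all 32851 windows (0.0974%). A stricter spelling, AGCACCNNGGACAG, was in 17 windows, of which 1 was that of *Gria2*. These stretches are shown because they hold the matches, in the direction of the gene, with the match in capitals; it lies on the opposite strand and so appears as its reverse complement, from base -126 to -113 before the *Grin1* start and from -170 to -157 before the *Gria2* start. The *Grin1* stretch is chr2:25319250-25319363 and the *Gria2* stretch chr3:80802942-80803055, both on the minus strand.
Grin1: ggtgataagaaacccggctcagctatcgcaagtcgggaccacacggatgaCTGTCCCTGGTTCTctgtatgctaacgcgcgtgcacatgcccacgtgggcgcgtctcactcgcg
Gria2: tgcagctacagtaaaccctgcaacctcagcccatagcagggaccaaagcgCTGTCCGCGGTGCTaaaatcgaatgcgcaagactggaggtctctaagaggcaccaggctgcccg
A match is a description of letters and not evidence of binding in these cells.

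Each of the 3 AMPA receptor genes had a higher group mean in REST cKO than in WT in at least 3 of the 4 conditions, without passing the adjusted test. For *Gria2* (chr3:80681450-80802835, minus strand) the values were 0.43, 1.81, 1.80 and 1.09 in WT sham against 2.12, 1.25 and 2.33 in REST cKO sham. At day 1 they were 1.51, 1.61 and 1.46 against 2.84 and 1.40, and at day 3 1.58, 1.10 and 0.90 against 1.86, 1.84, 1.47 and 1.97. At day 7 they were 1.90, 0.60 and 2.36 against 3.08, 1.64 and 2.84. The REST cKO mean was the higher in each of the 4 conditions, and the libraries of the genotypes overlapped in each. Averaged over the conditions *Gria2* was higher in REST cKO by 0.71 ± 0.28 (SE; limma adjusted p = 0.52), with a range of 0.49 to 0.93 over the libraries left out in turn. *Gria1*, which pairs with *Gria2* in the main AMPA receptors of cortical neurons, was at 1.41, -0.34 and 1.37 in WT day 7 and 2.60, 3.72 and 0.40 in REST cKO day 7, a difference of 1.55 ± 1.30 (SE) that turned to -0.22 with a term for sex. With single libraries left out this difference was between 0.43 (without REST cKO day 7 replicate 13) and 2.47. *Gria3* was at -3.47, 0.88 and -2.95 in WT day 7 and -0.70, 0.66 and -1.17 in REST cKO day 7, so 1 WT library was above all REST cKO libraries.

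Among the NMDA receptor genes, *Grin2c* gave the smallest unadjusted p in sham. *Grin2c* (chr11:115249169-115267243, minus strand) encodes a regulatory subunit found mainly in cerebellar granule cells and in astrocytes. Its values in sham were -0.28, -0.46, 0.19 and -0.14 in WT and 2.46, 1.60 and 2.24 in REST cKO, with no overlap. The difference was 2.96 ± 0.90 (SE; limma adjusted p = 0.49), and it was between 2.73 and 3.40 when single libraries were left out. The astrocyte, pan-neuronal and inhibitory neuron marker means, given above, separated the same libraries in the same direction. The microglia mean separated them in the opposite direction. Their part in the *Grin2c* difference was not tested. After injury the *Grin2c* values of the genotypes overlapped at each day, with WT libraries as high as 2.92 at day 1 and 2.07 at day 7. *Drd1*, a dopamine receptor gene of the other class, was the remaining gene with an unadjusted p under 0.05 in sham (3.01 ± 1.40, with overlap).

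*Grin1* (chr2:25291181-25319187, minus strand) had opposite signs at day 3 and day 7. In sham it was at -1.31, -3.09, -0.71 and -1.18 in WT and 0.99, -1.89 and 1.05 in REST cKO, a difference of 2.50 ± 1.17 (limma adjusted p = 0.69). Here 1 REST cKO library lay within the WT range. At day 3 it was at 0.37, 2.31 and 0.79 in WT and -3.22, 0.05, 0.37 and 0.77 in REST cKO, a difference of -2.29 ± 1.09 (limma adjusted p = 0.78). At day 7 it was at -0.23, -0.47 and -2.12 in WT and 1.46, 2.28 and 0.38 in REST cKO, with no overlap (2.32 ± 1.09, limma adjusted p = 0.48). Without REST cKO day 7 replicate 13 the difference was 1.38. With the values that give zero correlation, WT day 7 replicate 7 was at 1.47, the groups overlapped, and the difference was 1.79 (limma adjusted p = 0.61). At day 3 the same change put REST cKO replicate 27 at -0.77, and the groups, which had overlapped, were then apart by a narrow margin, with a difference of -2.73 (limma adjusted p = 0.71).

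The remaining NMDA receptor genes differed by less than their spread between libraries. *Grin2b*, the subunit of slow, juvenile-type NMDA receptors, was at 1.96, -0.22 and 1.95 in WT day 7 and 1.96, 2.45 and 1.07 in REST cKO day 7. *Grin2a*, the subunit of mature NMDA receptors, was at -0.86, 0.67 and 0.15 in WT day 7 and -0.39, -2.03 and 0.29 in REST cKO day 7. These genotype differences were 0.71 ± 0.83 and -0.86 ± 0.80 (SE), with overlap in both. The *Grin2b* difference became -0.14 without WT day 7 replicate 7, and the *Grin2a* difference -0.24 without REST cKO day 7 replicate 13.

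The kainate receptor genes *Grik1* and *Grik5* were lower in REST cKO than in WT at day 3. Kainate receptors tune transmitter release, and *Grik5* encodes a subunit that needs a partner to form a channel. *Grik1* (chr16:87895900-88290265, minus strand) was at 1.43, 0.40 and 2.58 in WT day 3 and -3.48, -0.39, 0.02 and 0.20 in REST cKO day 3, so the highest REST cKO library was below the lowest WT library. The difference was -2.76 ± 1.11 (SE; limma adjusted p = 0.73), and it was between -3.66 and -1.83 with each library left out. *Grik5* was at 1.65, 1.27 and 0.96 in WT day 3 and -3.55, -1.11, -0.73 and -0.83 in REST cKO day 3 (-2.81 ± 1.33, limma adjusted p = 0.78). In the set that gives zero correlation, WT replicates 5 and 16 were at -2.65 and 2.27, the groups overlapped, and the difference was -2.0 (limma adjusted p = 0.88). REST cKO day 3 replicate 9 was the lowest library for *Grik1* and *Grik5*. Outside the excitatory class, *Chrna1* (2.74 ± 1.26) and *Grm2* (-2.24 ± 1.08, or -0.88 with the values that give zero correlation) also had an unadjusted p under 0.05 at day 3, both with overlap.

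*Grid1* encodes a delta receptor, which binds synaptic organizers and is not opened by glutamate. Its values at day 7 were -0.64, -3.13 and -2.81 in WT and -0.48, 0.60 and 0.88 in REST cKO, with no overlap, although the nearest libraries (-0.64 and -0.48) were close. The difference was 2.76 ± 1.00 (SE; limma adjusted p = 0.34), and 2.76 with the values that give zero correlation (adjusted p = 0.35).

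The GABA-A receptor genes carried the largest inhibitory differences at day 7. *Gabra2* (chr5:70957597-71095849, minus strand) encodes an alpha subunit of synaptic GABA-A receptors on pyramidal neurons. It was at -0.72, -1.10 and -1.14 in WT day 7 and 2.34, 1.86 and 0.84 in REST cKO day 7, so every REST cKO library was above every WT library. The difference was 2.91 ± 0.84 (SE; limma adjusted p = 0.232), the smallest p of any receptor gene in that comparison, and it was between 2.51 and 3.23 with each library left out. In the set that gives zero correlation, WT replicates 7 and 12 were at 0.10 and -2.14. The groups still did not overlap, and the difference was 2.79 (limma adjusted p = 0.26).

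*Gabra3* separated the genotypes at day 7 only with the deposited values. *Gabra3*, another alpha subunit, was at -1.36, -3.08 and -2.37 in WT and 0.70, 1.14 and 0.03 in REST cKO (2.96 ± 1.22, limma adjusted p = 0.41). With the values that give zero correlation the groups overlapped, and the difference was 1.91 (limma adjusted p = 0.66). With a term for sex it was 1.63.

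The GABA-B receptor genes and the glycine receptor gene *Glrb* each had a genotype difference at day 7 that was smaller than its SE. *Gabbr1* and *Gabbr2* encode the subunits that together form the GABA-B receptor. *Gabbr1* was at 1.90, 0.09 and 2.10 in WT and 1.63, 2.20 and 1.93 in REST cKO (0.73 ± 0.77). *Gabbr2* was at 1.02, 0.01 and 1.11 in WT and 2.00, 0.78 and 0.92 in REST cKO (0.54 ± 0.66). Without WT day 7 replicate 7 these differences were 0.029 and 0.082, and without WT day 7 replicate 12 they were 1.19 and 0.90. *Glrb*, the glycine receptor beta subunit that attaches to the scaffold protein gephyrin, was the 1 inhibitory gene with a lower fitted mean in REST cKO at day 7. Its values were -0.14, -0.30 and 0.46 in WT and -2.30, 0.06 and -1.84 in REST cKO (-1.43 ± 1.54), and the sign turned with a term for sex (0.88).

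**Figure D4:**
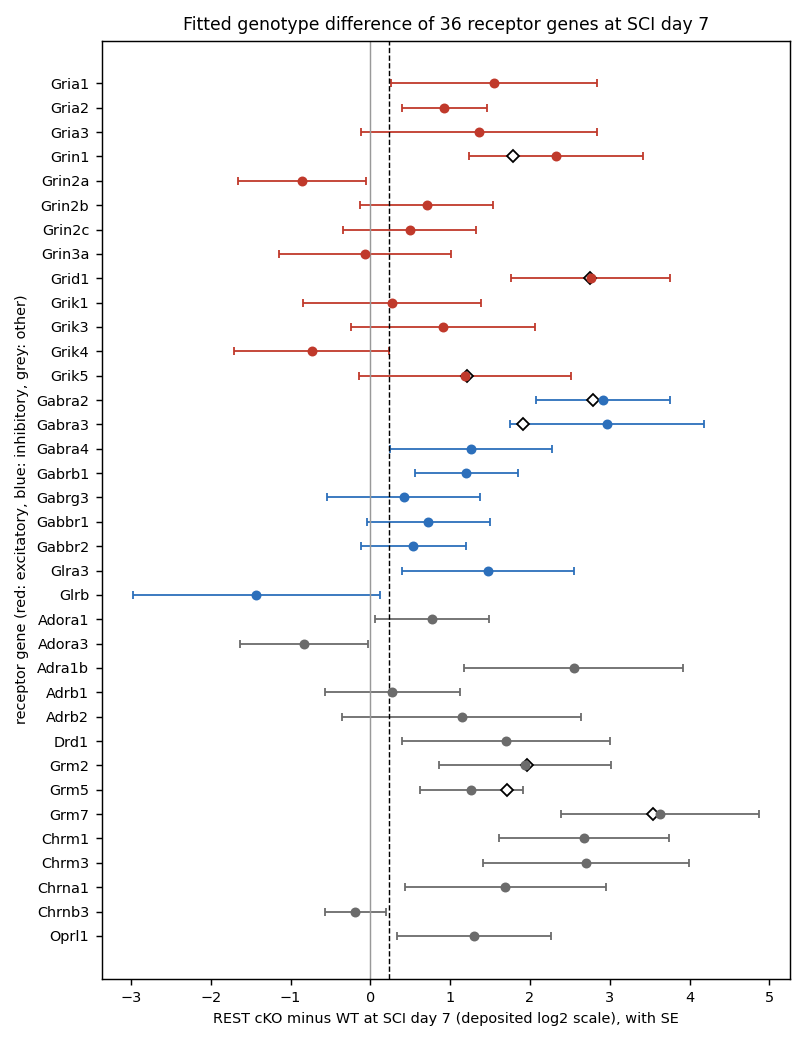
Fitted difference, REST cKO minus WT, at day 7 after SCI for 36 of the 40 receptor genes (points; bars are the SE; red excitatory, blue inhibitory, grey other), on the deposited log2 scale. White diamonds give the difference of 8 correlating genes with the values that give zero correlation, and the dashed line is the median over all genes (0.23). Of the 36 points 30 lie to the right of 0, where 60.5% of all genes lie.

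Of the G-protein-coupled receptor genes, *Grm7*, *Chrm1* and *Chrm3* were among the 8 with an unadjusted p under 0.05 at day 7. *Grm7* (chr6:110645581-111567230, plus strand) encodes a presynaptic glutamate receptor that limits release. It was at -0.66, -3.12 and -2.70 in WT day 7 and 2.15, 2.32 and 0.14 in REST cKO day 7, with no overlap (3.63 ± 1.24, limma adjusted p = 0.29). At day 3 the order was the reverse, at 2.23, -0.22 and 2.02 in WT and -3.23, -0.39, -3.10 and -0.48 in REST cKO (-3.98 ± 1.24, limma adjusted p = 0.65), again without overlap. With the values that give zero correlation the differences were 3.54 and -3.96. *Grm5*, a postsynaptic receptor that couples to calcium release, was at 0.74, 0.58 and 0.21 in WT day 7 and 2.28, 1.76 and 0.96 in REST cKO (1.26 ± 0.64, limma adjusted p = 0.52). With WT replicate 12 at -1.21 the difference was 1.71 (limma adjusted p = 0.39).

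*Chrm1* (chr19:8663789-8683587, plus strand), the muscarinic receptor most abundant in the cortex, does not correlate with the components. It was at -2.99, -2.81 and -2.26 in WT day 7 and 1.41, -2.13 and 0.30 in REST cKO day 7. Every REST cKO library was above every WT library, although REST cKO replicate 13 was close to the highest WT library. The difference was 2.68 ± 1.07 (SE; limma adjusted p = 0.38), and it was between 1.92 and 4.10 with each library left out and 1.54 with quantile normalization, which ended the unadjusted call. In sham it was at -0.74, 0.42, 1.78 and 0.24 in WT and 1.84, 1.14 and 1.34 in REST cKO. *Adora3*, an adenosine receptor that microglia also express, was at 1.29, 2.18, 2.04 and 1.25 in WT sham and -0.60, -0.71 and 1.24 in REST cKO sham (-1.86 ± 0.86, limma adjusted p = 0.69). The highest REST cKO library (1.24) was just below the lowest WT library (1.25). The microglia marker mean was also lower in REST cKO sham than in WT sham, as given above. Its part in the *Adora3* difference was not tested.

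A further 14 receptor genes had day 7 differences between -0.74 (*Grik4*, a kainate subunit) and 2.70 (*Chrm3*, a muscarinic receptor that couples to calcium release). *Chrm3* had an unadjusted p under 0.05 (limma adjusted p = 0.49) and overlapped between the genotypes. *Gabrb1*, a GABA-A beta subunit, and *Grik3*, a kainate subunit, did not overlap at day 7 but differed by only 1.20 ± 0.65 (limma adjusted p = 0.55) and 0.91 ± 1.15 (limma adjusted p = 0.86). *Chrnb3* was the least variable receptor gene, with an SD of 0.34 over the 25 libraries, and differed by -0.19 ± 0.38 at day 7.

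**Figure D5:**
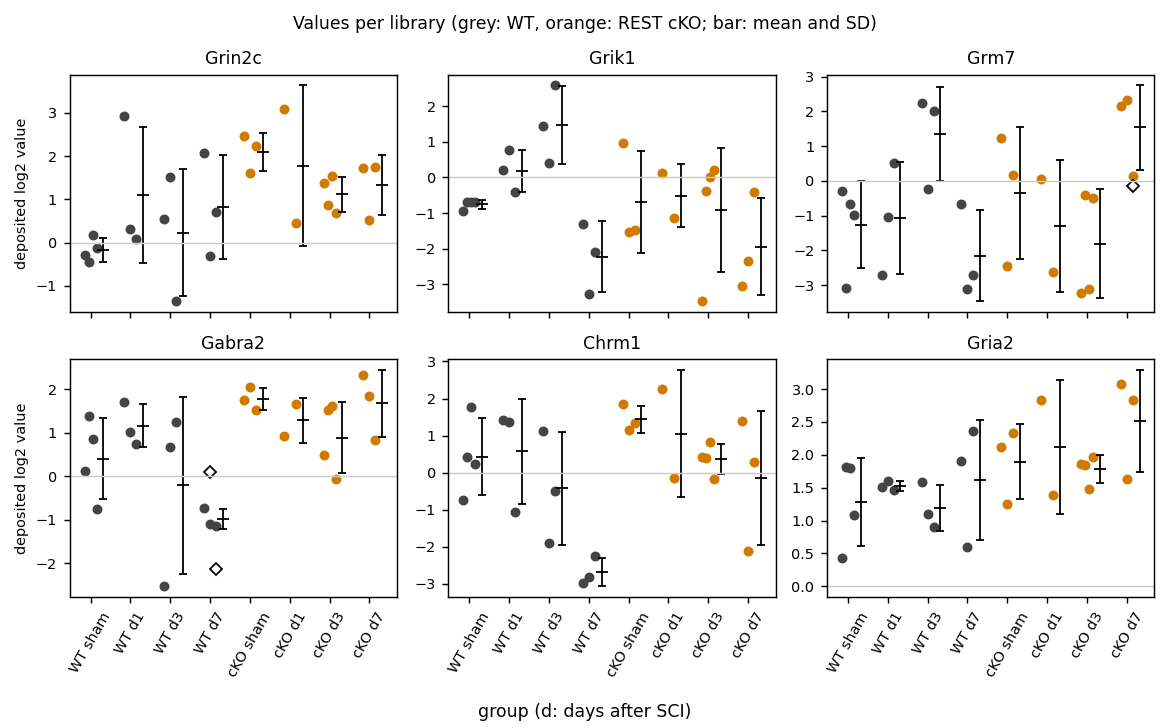
Deposited log2 values of Grin2c, Grik1, Grm7, Gabra2, Chrm1 and Gria2 in each library of the 8 groups (points; grey WT, orange REST cKO; bars are the group mean and SD). White diamonds mark where another value gives zero correlation with the sequencing components. Grin2c and Gabra2 separate the genotypes in sham, Grik1 and Grm7 at day 3, and Gabra2, Grm7 and Chrm1 at day 7.

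In WT mice the median receptor difference from sham was above that of all genes in both classes at day 1 and day 3, without a gene past the adjusted test. At day 1 against sham the median difference was 1.20 for excitatory, 0.85 for inhibitory and 0.12 for all genes. Higher at day 1 were 12 of 14 excitatory and 8 of 12 inhibitory genes (55.9% of all genes). The 5 receptor genes with an unadjusted p under 0.05 were all higher (6.43% of all genes passed, 3.92% higher). At day 3 the medians were 1.03 and 0.38 against 0.01, and 7 receptor genes passed, 5 of them higher (6.9% of all genes passed, 3.64% higher). At day 7 the medians were 0.19 and -0.20 against -0.12, and 1 receptor gene passed (6.89% of all genes). These 3 comparisons share the WT sham libraries, so a low or high sham library enters each of them. Against a pan-neuronal mean of 0.89 in WT sham, injured WT libraries averaged 1.67 (day 1), 1.11 (day 3) and 0.99 (day 7). Markers of other cell types differed between the same groups. The endothelial mean was 1.39 (1.17 to 1.62) in WT sham, 2.12 (1.75 to 2.44) at day 1 and 2.34 (1.91 to 2.78) at day 3, with no overlap with sham. From sham to day 1 the astrocyte mean was 0.79 and 1.90 and the oligodendrocyte mean -0.09 and 1.43. Their part in the receptor differences was not tested.

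Genes that separated from WT sham at day 1 included *Adora1*, *Grin1* and *Grid1*. *Adora1*, the adenosine receptor that dampens glutamate release, was at 2.10, -0.13, 0.51 and 0.65 in sham and 3.05, 2.46 and 2.59 at day 1 (2.26 ± 0.70, limma adjusted p = 0.57). All its day 1 libraries were above all sham libraries. *Grin1* was at 1.02, 2.24 and -0.16 at day 1 (2.67 ± 1.06, or 1.60 without WT day 1 replicate 8) and *Grid1* at 1.80, 1.09 and -0.09, against -0.65, -2.97, -0.86 and -1.44 in sham (2.80 ± 0.97). *Grm2* (2.50 ± 1.05) had an unadjusted p under 0.05 with overlap. *Adora1* was also lower in REST cKO than in WT at day 1, at 1.08 and 0.97, a difference of -2.07 ± 0.90 (limma adjusted p = 0.999).

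At day 3, 7 receptor genes had an unadjusted p under 0.05 (6.9% of all genes passed). *Grin1*, *Grid1*, *Grik1*, *Grm2* and *Grm7* were higher and *Chrna1* and *Glra3* lower than in WT sham. *Grin1* differed from sham by 3.50 ± 1.14 (limma adjusted p = 0.60) and by 3.58 with the values that give zero correlation. *Grik1* was at -0.95, -0.68, -0.70 and -0.70 in sham, below each of its day 3 values (2.69 ± 1.16, limma adjusted p = 0.66). *Grm7* was at -0.30, -3.10, -0.68 and -0.97 in sham (3.63 ± 1.29). *Grm2*, a receptor that curbs glutamate release, was at -1.20, -3.03, -3.18 and -1.52 in sham and 2.39, 1.74 and 0.05 at day 3 (3.29 ± 1.12), but with replicate 5 at -2.39 the groups overlapped and the difference was 1.99 (limma adjusted p = 0.78). *Grid1* differed by 3.04 ± 1.04, and by 2.52 with replicate 22 at -0.85, which overlapped sham. *Chrna1*, the muscle-type nicotinic subunit, was at 1.34, 0.64, -0.61 and -2.16 in sham and -3.54, -2.76 and -3.23 at day 3 (-3.30 ± 1.31, limma adjusted p = 0.63). *Glra3*, a glycine receptor alpha subunit, was at -0.36, -0.17, -1.25 and -1.33 in sham and -3.20, -3.35 and -3.15 at day 3 (-2.50 ± 1.12, limma adjusted p = 0.69). All WT day 3 values of *Chrna1* and *Glra3* were under -2, the mark of low values used above. At day 7 *Chrm1* was below sham, and also under -2, in every WT library (-3.09 ± 1.01, limma adjusted p = 0.46).

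In REST cKO mice the injury comparisons had other medians. At day 1 the excitatory median was -0.03 and the inhibitory 0.50 (all genes 0.29), at day 3 -0.75 and -0.69 (all genes 0.03), and at day 7 0.06 and 0.39 (all genes 0.07). Without the correlating genes they were -0.17 and 0.39 at day 1, -0.67 and -0.39 at day 3, and -0.61 and 0.07 at day 7. At day 3, 1 of 14 excitatory and 3 of 12 inhibitory genes were higher than in REST cKO sham (51.6% of all genes were). Some markers separated the same libraries. The pan-neuronal mean was 1.74 to 2.43 in REST cKO sham and 1.12 to 1.36 at day 3. The microglia mean was 2.80 to 3.05 and 3.15 to 3.39, and the inhibitory neuron mean 0.36 to 1.25 and -0.80 to -0.46. The marker means of the other cell types overlapped. Their part in the receptor differences was not tested. The receptor genes with an unadjusted p under 0.05 were 1 at day 1 (5.29% of all genes passed), 2 at day 3 (4.65%) and 1 at day 7 (5.67%). The 1 of these without overlap was *Grm2* at day 1, at -3.31, -2.0 and -2.32 in sham and -0.41 and 1.34 after injury (3.15 ± 1.18, limma adjusted p = 0.89). The others were *Gabrg3* (2.38) and *Drd1* (-3.07) at day 3 and *Grin2a* (-2.04) at day 7, each with overlap.

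The interaction term asks whether the injury difference itself differed between the genotypes. At day 3 it was negative for 13 of 14 excitatory genes, with a median of -1.94 against 0.03 over all genes, and for 7 of 12 inhibitory genes, with a median of -0.48. Over all genes it was positive for 51.2%. From sham to day 3 the pan-neuronal marker mean was 0.89 and 1.11 in WT and 2.10 and 1.26 in REST cKO. The excitatory neuron marker mean was 0.71 and 1.06 in WT and 1.14 and 0.90 in REST cKO. The part of these markers in the interaction was not tested. Without the correlating genes the excitatory median of the interaction was -0.95. The 4 receptor genes with an unadjusted p under 0.05 (5.15% of all genes) were *Grm7* (-6.05 ± 2.01), *Grin1* (-4.79 ± 1.77), *Drd1* (-5.23 ± 2.12) and *Grid1* (-3.63 ± 1.62), with limma adjusted p between 0.91 and 0.95. This count was between 2 and 6 with single libraries left out and between 1 and 7 under the other alternatives. The values that give zero correlation put *Grin1* at -5.33 and *Grid1* at -3.17. At day 7 no receptor gene had an unadjusted p under 0.05 (6.35% of all genes did), and the medians were -0.23 for excitatory and 1.46 for inhibitory genes (0.10 without the correlating genes) against 0.19. This comparison uses both sham groups, and WT sham replicate 10 was the lowest WT sham library for *Gria1*, *Gria3*, *Grin1*, *Grid1* and *Grm7*.

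Partners of the receptors at synapses gave 0 genes past an adjusted p of 0.1 at day 7 in limma. Of the 24 of 34 excitatory synapse partners in the table, 23 were higher in REST cKO at day 7 (60.5% of all genes were). Their median was 0.66 against 0.23 over all genes. At an unadjusted p under 0.05, 3 were higher and 1 lower, against 9.95% of all genes in either direction and 7.73% higher. *Gsg1l* and *Cacng3*, auxiliary subunits of AMPA receptors, were higher by 3.37 ± 1.26 and 2.44 ± 1.09, and *Shank2*, a postsynaptic scaffold, by 3.09 ± 1.32. *Pick1*, which binds AMPA receptor tails and promotes their internalization, differed by -3.59 ± 1.20, with means of -2.43 ± 1.12 in REST cKO and 0.99 ± 0.41 in WT (SD, n = 3 each). Of the 13 of 22 inhibitory synapse partners in the table, 10 were higher, with a median of 0.37, and none had an unadjusted p under 0.05. The smallest p on that side belonged to *Trak2*, a transport adaptor that binds GABA-A receptors (1.94 ± 1.12).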

How the data were processed

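Values of 40 receptor genes in 25 libraries were taken from 1 deposited table. The authors made its log2 values, which are normalized expression, with STAR (mm10/GRCm38), Salmon and tximport for quantification and DESeq2 for scaling. They then corrected for batch, filtered genes by counts and took the sequencing components out of the values. The table also holds fold changes and p-values of the authors' own comparisons and network columns, which were not used. Of 9955 rows, 24 without a symbol were left out. No depth or counting interval can be had from these values.

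All 9931 genes were fitted with limma 3.58.1 in R 4.3.3: 8 group means plus the 2 labelled components over 25 libraries, empirical Bayes with a mean-variance trend, Benjamini-Hochberg adjustment over 9931 genes and a threshold of 0.1. The fit was tested on simulated data. Members and gene lists were chosen with earlier results of these data known. Values per library are given for genes with an unadjusted p under 0.05 and no overlap between groups, for 16 core receptor genes (14 in the table) and for textbook RE1 genes; other genes were named after their values were seen. The search for values that give zero correlation allowed a change of sign, a step of up to 3 in units of 0.5, or both, in at most 3 libraries, with a tolerance of 1e-05. Alternatives left out the components, libraries in turn, the trend or low genes, or added batch, sex, weights or quantile normalization. Values of 4 member genes are not reported here singly, though the counts and class summaries include them.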

Additional observations from a re-analysis of the deposited data

Results flagged for a closer look

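Of 48 sets of 4 libraries examined (the named receptor genes and the excitatory minus inhibitory level in WT sham and REST cKO day 3), 5 held a library far from the other 3 by Dixon's test at its 5% level, which chance alone gives in about 5% of sets. REST cKO day 3 replicate 9 was low for *Grik5* (-3.55, the others -1.11 to -0.73) and for *Grik1* (-3.48, the others -0.39 to 0.20), both of which encode kainate receptor subunits. Without that library the difference from WT at day 3 was -2.07 for *Grik5* and -1.83 for *Grik1*, in the same direction. WT sham replicate 3 was at -0.95 for *Grik1*, against -0.70 to -0.68, a small gap among close values. WT sham replicate 10 was at -3.20 for *Gria1*, the AMPA subunit gene, against 0.10 to 0.61. WT sham replicate 17 was at 2.18 for *Gabbr2*, the GABA-B subunit gene, against 0.21 to 0.41.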

How the results depend on the processing

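The count of receptor genes past an adjusted p of 0.1 was 0 in all 13 comparisons under all 34 alternative fits and with a threshold of 0.05, and the smallest adjusted p in any of them was 0.110 (without WT day 3 replicate 5). At an unadjusted p under 0.05 the count at day 7 was 8, with a range of 3 (quantile normalization) to 10 over the alternatives and 6 to 9 with each library left out. At day 3 it was 6, with ranges of 1 (genes with a mean of at least 0) to 8 and of 2 (without WT sham replicate 17) to 6, and in sham it was 4, with ranges of 2 to 5 and of 2 to 4. The values that give zero correlation were an alternative chosen after seeing the data, and gave 6 at day 7, 4 at day 3 and 4 in sham.

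Of 44 differences of named genes, 38 kept their sign under every alternative. At day 7 a term for sex gave -0.22 for *Gria1* and 0.88 for *Glrb*, and *Grin2b* was between -0.14 and 1.23 with each library left out. Averaged over the conditions, *Gabbr1* was -0.00566 with a term for batch, *Gabbr2* -0.00772 with a term for sex and -0.0121 with quantile normalization, and *Glrb* 0.73 with a term for sex and 0.12 with library weights. With each library left out that average was between -0.73 and 0.42 for *Glrb*. The cause was not tested.

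The excitatory minus inhibitory level, REST cKO minus WT, came to 0.60 (sham), -0.31 (day 1), -0.65 (day 3) and -0.37 (day 7). Only members with a mean of at least 0 gave 0.23 (sham), 0.37 (day 1), 0.20 (day 3) and -0.80 (day 7). The median over genes gave -0.72 at day 7. Without the 11 correlating genes, chosen after seeing the data, the day 1 value was 0.013, the day 3 value -0.17 and the day 7 value 0.020. Leaving out each library gave 0.32 (without WT sham replicate 10) to 0.81 in sham, -0.56 (without REST cKO day 1 replicate 19) to -0.025 (without WT day 1 replicate 1) at day 1, -0.82 to -0.45 at day 3, and -0.55 to -0.15 (without WT day 7 replicate 12) at day 7. The replicate numbers are unique to each library, so libraries could not be paired by animal. The labelled batches are shared between groups and entered only as a term in an alternative fit. The precision is limited by the 2 to 4 libraries of a group, and the depth of each library was not analysed here.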
